A study of Mus musculus with 6 samples.

Results

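Potassium and HCN channel genes were followed in the retina plus retinal pigment epithelium (RPE) of 5XFAD mice that were treated with efavirenz (EFV) or left untreated. The genes were taken by symbol, as those starting with Kcn or Hcn, then letters, then a number, except Kcnj10 and Kcnj13. This gave 93 of the 19401 genes listed in the deposited files. The rule reads symbols and no measured values, but it was set with earlier results of these data known. 5XFAD mice model Alzheimer's disease and carry mutant human transgenes of familial Alzheimer's disease, APP among them, driven by the neuronal Thy1 promoter. The mice were hemizygous, male, 9 months old and of a B6SJL background free of the rd1 and rd8 retinal degeneration alleles, in both groups. The EFV mice drank EFV from 3 months of age (0.08 mg/kg of body weight by the sample labels, whereas the methods of the paper name a slightly higher dose), and the control mice drank water with the vehicle. There were 3 libraries a group, every one from a pool of 5 to 6 mice, and all errors given here are therefore between pools and not between mice. No group without the 5XFAD transgenes was analysed here, and the comparison is therefore that of EFV with control within this model.

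Potassium channels set the resting potential of a cell and end its electrical responses, and they are grouped by the build of their pore-forming subunits. Voltage-gated (Kv) subunits open on depolarization, inward rectifiers (Kcnj) and tandem pore (K2P, Kcnk) subunits pass current near rest, and others open on calcium or sodium. HCN channels open on hyperpolarization and pass a mixed cation current. In photoreceptors, the silent subunit Kcnv2 is part of the channel of the inner segment that carries much of the outward dark current. Loss of KCNV2 in humans causes a cone dystrophy with an unusual rod response.

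The libraries held 23455167 to 24590278 counts assigned to genes, of which the channel genes took 0.579% to 0.603%. Rod markers summed to 22520 to 24280 FPKM (fragments per kilobase of transcript, relative to the depth of the library), and all 6 of them were tested. RPE markers summed to 18.5 FPKM in control 2 and to 36.9 to 45.1 in the other libraries. All 6 RPE markers were higher in EFV on average, and 2 of them, Rpe65 and Lrat, passed the threshold described below. Lens markers summed to 553 FPKM in control 3 and to 7.38 to 25.0 in the other 5 libraries, and all 5 tested lens markers passed that threshold as lower in EFV. Oligodendrocyte markers summed to 10.4 to 11.3 FPKM in control and to 14.3, 11.1 and 17.3 in EFV 1, 2 and 3. Of these, Mbp, a myelin protein gene, passed as higher in EFV (log2 fold change 0.20 ± 0.086, SE), while Mog and Mobp were at 0.23 FPKM or less in every library. The part of these differences in the results below was not tested, other than by leaving out each library in turn. In such bulk samples, fewer cells of a type and less RNA per cell cannot be told apart.

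An FPKM of at least 1 on average was found for 53 channel genes, of at least 10 for 26 and of at least 100 for 3, whereas 18 lay below 0.1. The 10 most abundant genes held 67.1% of the summed FPKM of all 93, and the first 20 held 83.6%. In all 6 libraries, 85 of the 93 were listed, and the remaining 8 were at 0 in at least 1 library, where a count of 0 still allows up to 3 counts. The test covered 72 of them, those that reached 10 counts in 3 or more libraries. The plot of levels by class shows how far a single gene stood above the rest of its class in most classes.

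**Figure D1:**
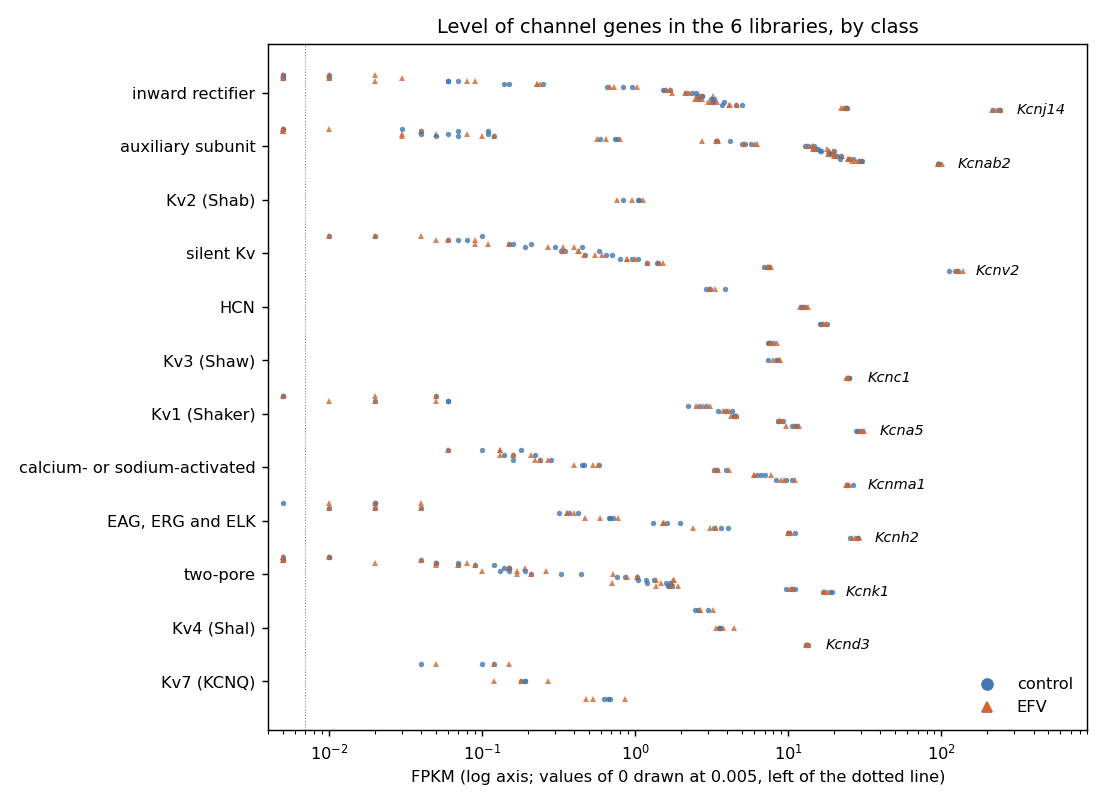
FPKM (log axis) of 88 of the channel genes in the 3 control libraries (circles) and the 3 EFV libraries (triangles), 1 row of points per gene, ordered by class and by mean level, with the most abundant gene of a class named where it is shown. The points of the 2 groups lie on each other for nearly all genes, and Kcnj14 and Kcnv2 lie above 100 FPKM in every library.

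No channel gene changed at an adjusted p of 0.05 in the quasi-likelihood test of edgeR, and none of the 15537 genes tested did either (0.0%). The smallest adjusted p was 0.999 among the channel genes and 0.323 among all genes. At an unadjusted p of 0.05 with the fold limit given below, edgeR called 3 of the 72 tested channel genes, DESeq2 1 and limma (on log2(FPKM + 0.1)) 1. The shares over all genes were 3.01% with edgeR, 1.73% with DESeq2 and 3.15% with limma. The median log2 fold change of the 72 tested genes (EFV over control) was -0.0059, beside 0.0012 for all genes tested, and 33 had a positive and 39 a negative value. The median size of the log2 fold change was 0.051, beside 0.057 for all genes, and 54 of the 72 lay within 0.1 of 0.

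The threshold of the paper is an unadjusted p of 0.05 with a small minimum fold change (0.098 on the log2 scale, in either direction). The paper based its p on the Poisson distribution, whereas the same limits were applied here to the p of edgeR. With edgeR, this threshold was passed by 3 channel genes (4.17% of 72), Kcnh5 and Kcne2 lower and Kcnk4 higher in EFV, beside 3.01% of all genes tested. By direction, 1.47% of all genes passed as higher and 1.54% as lower. The study lists Kcnh5 and Kcnv2 as changed on these same libraries, so their direction here is no independent evidence. Kcnk4 and Kcne2 are not in its list. The FPKM ranges of EFV and control did not overlap for 2 channel genes (2.78%), Kcnk4 and Kcnc1, beside 7.67% of all genes.

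**Figure D2:**
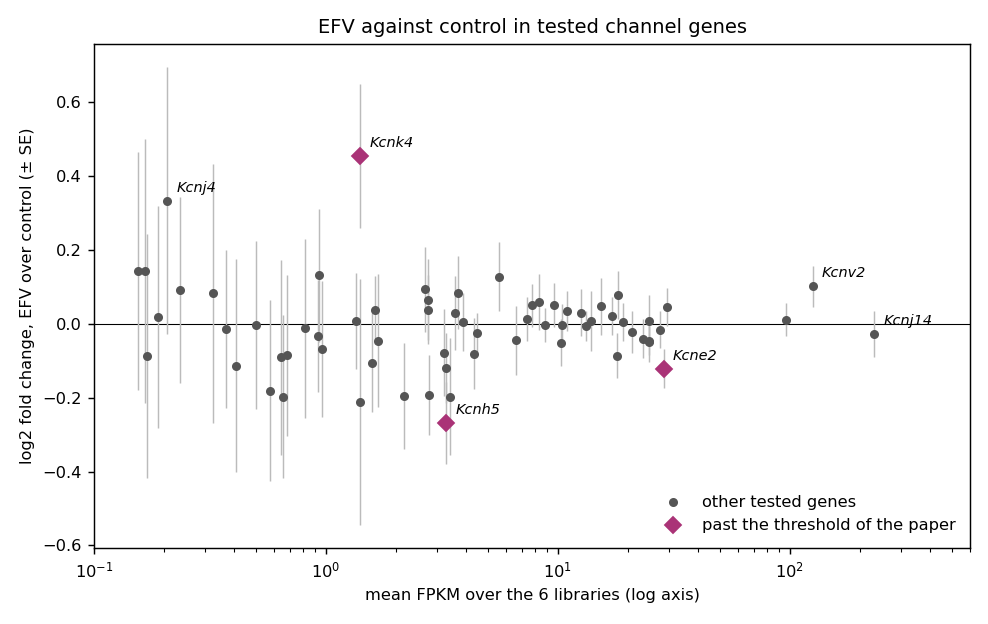
Log2 fold change of EFV over control (± SE, edgeR) of 67 tested channel genes against their mean FPKM over the 6 libraries (log axis), with diamonds for the 3 genes past the threshold of the paper. Genes with a mean of at least 10 FPKM lie between -0.12 and 0.10, and the error bars widen toward low levels.

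The precision depended on the level of the gene. Of the 72 genes, 26 had a mean of at least 10 FPKM, with a median SE of 0.056 and log2 fold changes from -0.12 (Kcne2) to 0.10 (Kcnv2). The 19 tested genes with a mean under 1 FPKM had a median SE of 0.245. For these, a log2 fold change as large as that of Kcnh5 (-0.27) would be about the size of this SE and could not be told from 0.

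Kcnh5 is a voltage-gated subunit of the ether-a-go-go (EAG) family, on the minus strand of chromosome 12 (74897217 to 75177332, GRCm38), and GENCODE shows no exon of another gene over its exons. Its FPKM was 3.25, 4.02 and 3.66 in control 1, 2 and 3, and 3.10, 3.37 and 2.39 in EFV 1, 2 and 3. EFV 3 was the lowest and control 2 the highest, and the groups overlapped, since EFV 2 lay above control 1. The log2 fold change was -0.27 ± 0.11 (SE), a fold of 0.830, past the threshold, with an adjusted p of 0.999 by edgeR. Without EFV 3 it was -0.16, and without control 2, the library with the lowest RPE markers, it was -0.19, and neither value passed.

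Kcnk4 encodes TRAAK, a K2P channel that is opened by stretch of the membrane and by polyunsaturated fatty acids. It lies on the minus strand of chromosome 19 (6925662 to 6934883) and shares 587 exon bases, 13.2% of its own, with Catsperz on the same strand. Its FPKM was 1.32, 1.04 and 1.17 in control and 1.78, 1.36 and 1.76 in EFV. All EFV libraries lay above all control libraries, but EFV 2 exceeded control 1 by only 1 count, 57 against 56. Its log2 fold change was 0.45 ± 0.20 (SE), a fold of 1.37, past the threshold, with an adjusted p of 0.999 by edgeR. Catsperz was listed at 1.13, 0.65 and 0.74 FPKM in control and at 0.73, 0.40 and 0.57 in EFV, from 7 to 20 counts. RSEM divides reads that 2 genes share, and the level of Kcnk4 is uncertain to that extent. With DESeq2 Kcnk4 did not pass the threshold (0.45), nor did it without EFV 1 (0.39).

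Kcne2 encodes a small auxiliary subunit with a single membrane span that assembles with Kv7, HCN and ERG subunits. On the plus strand of chromosome 16 (92292389 to 92298133), it had an FPKM of 28.8, 30.2 and 30.0 in control and of 27.7, 26.1 and 29.0 in EFV. EFV 2 was the lowest, and EFV 3 lay above control 1, so the groups overlapped. The log2 fold change was -0.12 ± 0.053 (SE), a fold of 0.919, past the threshold, with an adjusted p of 0.999 by edgeR. This call was lost when counts were scaled by their totals only (-0.11), with DESeq2 (-0.12) and without EFV 2 (-0.091).

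All 3 calls were lost when control 2, control 3 (the library with the high lens markers) or EFV 1 was left out, since no channel gene then passed the threshold. Without control 3 the log2 fold changes were near those with all libraries, at -0.29 for Kcnh5, 0.45 for Kcnk4 and -0.12 for Kcne2. Without control 1, Kcnab1 passed beside the 3 genes, without EFV 2 Kcnh5 and Kcnk4 passed, and without EFV 3 Kcne2 and Kcnt1 did. The 250 bases before the start of each of these 3 genes are shown from RefSeq (GRCm38.p6), as they are the only channel genes past the threshold, with each CG dinucleotide in capitals.
Kcnh5 promoter, chr12:75177333-75177582, minus strand: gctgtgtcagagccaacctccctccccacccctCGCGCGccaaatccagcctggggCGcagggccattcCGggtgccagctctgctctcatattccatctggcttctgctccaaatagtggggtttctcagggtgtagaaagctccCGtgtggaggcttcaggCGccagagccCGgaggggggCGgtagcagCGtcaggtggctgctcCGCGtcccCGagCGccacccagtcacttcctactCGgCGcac
Kcnk4 promoter, chr19:6934516-6934765, minus strand: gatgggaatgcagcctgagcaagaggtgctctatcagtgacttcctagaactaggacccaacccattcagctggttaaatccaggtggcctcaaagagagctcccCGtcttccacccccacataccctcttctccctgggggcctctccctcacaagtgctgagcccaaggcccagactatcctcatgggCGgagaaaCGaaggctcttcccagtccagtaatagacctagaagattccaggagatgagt
Kcne2 promoter, chr16:92292139-92292388, plus strand: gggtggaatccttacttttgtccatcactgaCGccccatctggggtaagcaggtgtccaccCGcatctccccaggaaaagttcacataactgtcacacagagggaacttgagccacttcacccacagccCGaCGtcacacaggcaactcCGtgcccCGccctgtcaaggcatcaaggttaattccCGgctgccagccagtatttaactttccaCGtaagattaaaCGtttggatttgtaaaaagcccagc
These stretches differed in base composition. The one of Kcnh5 had 65.6% G and C and 16 CG dinucleotides, that of Kcnk4, which lies before a start within the RefSeq span of the gene, 54.8% and 3, and that of Kcne2, the first of its 2 starts in the table, 52.4% and 9. The median over all 32851 such windows was 52.4% and 6, and over the 91 windows that matched 66 of the channel genes it was 58.8% and 8.

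**Figure D3:**
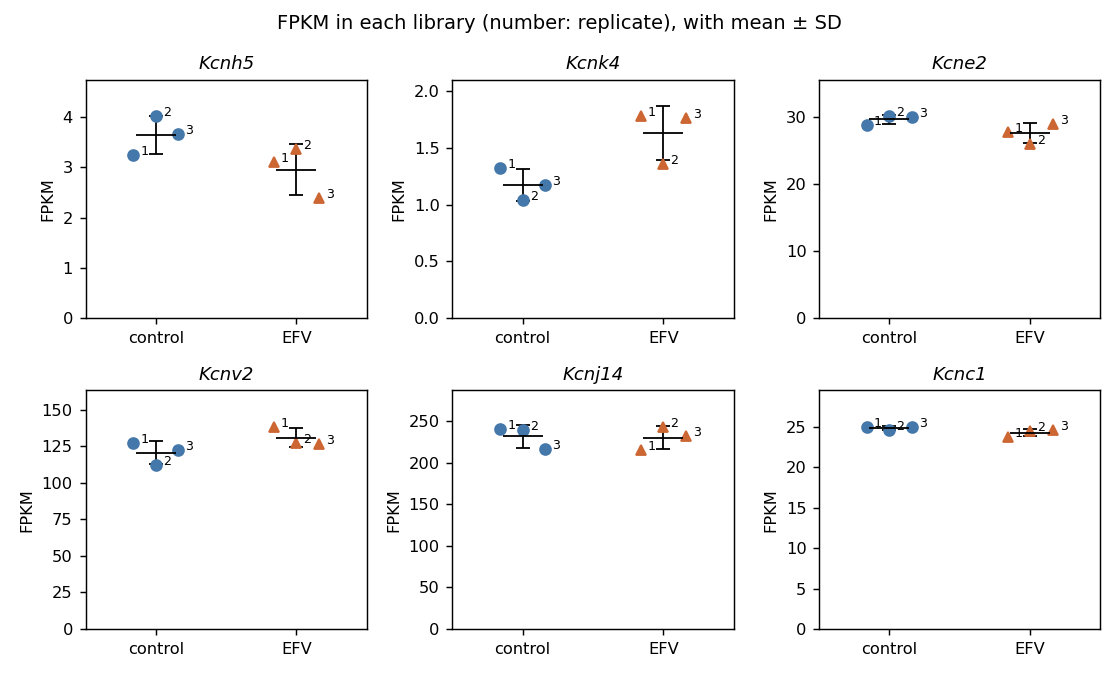
FPKM of Kcnh5, Kcnk4, Kcne2, Kcnv2, Kcnj14 and Kcnc1 in each control library (circles) and EFV library (triangles), with the replicate number beside each point and the mean ± SD of each group (n = 3), on axes that start at 0. The groups overlap in all but Kcnk4 and Kcnc1, and control 2 has the highest Kcnh5 and the lowest Kcnk4 and Kcnv2.

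Kcnv2, a silent subunit that forms no channel alone and joins other Kv subunits (chromosome 19, plus strand, 27322061 to 27337179), had 128, 112 and 122 FPKM in control and 138, 128 and 127 in EFV. Control 2, the library with the lowest RPE markers, was the lowest and EFV 1 the highest. Control 1 lay above EFV 3, so the groups overlapped, and the log2 fold change was 0.10 ± 0.055 (SE), which did not pass the threshold with edgeR. With a Poisson model, which allows for no spread between pools, Kcnv2 passed. The Kv2 subunit Kcnb2 was at 0.963 FPKM, with a log2 fold change of -0.069 ± 0.18.

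Silent Kv subunits other than Kcnv2 were low. Kcng4 followed at 7.34 FPKM and Kcns2 at 1.35, and the remaining 7 (Kcnf1, Kcng2, Kcns1, Kcns3, Kcng1, Kcnv1 and Kcng3) had a mean of 0.925 or less. Kcnv2 alone held 91.8% of the FPKM of this class. None of the 7 tested silent subunits passed the threshold, with log2 fold changes from -0.18 to 0.10.

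Of the HCN genes, Hcn2 and Hcn3 had means of 17.0 and 12.6 FPKM and Hcn4, known as the pacemaker subunit of the heart, had 3.21. Hcn2 was at 16.4, 16.2 and 17.9 FPKM in control and at 16.9, 17.7 and 17.2 in EFV, which overlapped. The log2 fold changes of Hcn2, Hcn3 and Hcn4 were 0.020 ± 0.052, 0.030 ± 0.063 and -0.078 ± 0.12 (SE), and none of these passed the threshold. Hcn3 shares 17.1% of its exon bases with Pklr on the opposite strand, which was listed at 0.13 to 0.22 FPKM.

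Inward rectifiers, counted without Kcnj10 and Kcnj13, which the rule left out, held the largest share of the channel FPKM, 23.3%. Kcnj14 alone was 84.8% of the class so counted. Kcnj14 (Kir2.4; chromosome 7, minus strand, 45816467 to 45824747) had an FPKM of 240, 240 and 216 in control and 215, 243 and 232 in EFV, from 13594 to 15272 counts. The groups lay over each other, with a log2 fold change of -0.028 ± 0.063 (SE). Kcnj9, a subunit gated by G proteins, was the next at 23.3 FPKM, and its relatives Kcnj3, Kcnj5 and Kcnj6 had 4.36, 2.75 and 2.18. Kcnj11, the pore of the ATP-sensitive channel, had 3.11, 2.63 and 3.27 FPKM in control and 2.52, 2.47 and 2.75 in EFV. Its EFV 3 value lay above control 2, and the log2 fold change was -0.19 ± 0.11 (SE). The values of Kcnj6 and Kcnj12 were -0.20 ± 0.14 and -0.12 ± 0.095. Kcnj2 and Kcnj8, channels of muscle and vessels, had 1.63 and 0.810 FPKM. Kcnj4 was near the count minimum (log2 fold change 0.33 ± 0.36), and Kcnj16, Kcnj1 and Kcnj15 were not tested and had a mean of 0.063 FPKM or less. None of the 10 tested genes of the class passed the threshold.

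Auxiliary subunits, which modify the gating and transport of the pore-forming ones, held 21.1% of the channel FPKM. The cytoplasmic beta subunits of Kv1 led, with Kcnab2 at 95.1, 97.1 and 94.6 FPKM in control and 95.7, 95.3 and 101 in EFV. Kcnab2 had a log2 fold change of 0.010 ± 0.044 (SE), and it shares 2.24% of its exon bases with a non-coding gene on the same strand. Kcnab3 and Kcnab1 had means of 19.1 and 18.1 FPKM, and the 3 beta subunits did not pass the threshold. The share of Kcnab2 in their summed FPKM, a measure chosen after the values were seen, was 72.5% ± 1.48 in control and 71.9% ± 0.507 in EFV (SD, n = 3; two-sided exact permutation test, p = 0.6). The calcium sensors that join Kv4 channels were at 24.6 (Kcnip4), 20.9 (Kcnip1), 15.4 (Kcnip3) and 5.55 FPKM (Kcnip2), and Kcnip2 had a log2 fold change of 0.13 ± 0.093. Of the beta subunits of the BK channel, which responds to calcium and voltage, Kcnmb4 was at 13.8 FPKM, Kcnmb2 at 0.680 and Kcnmb1 at 0.062. Beside Kcne2, the small membrane subunits were low, with Kcne1l at 3.42 FPKM and Kcne4, Kcne3 and Kcne1 at 0.082 or less, not tested.

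**Figure D4:**
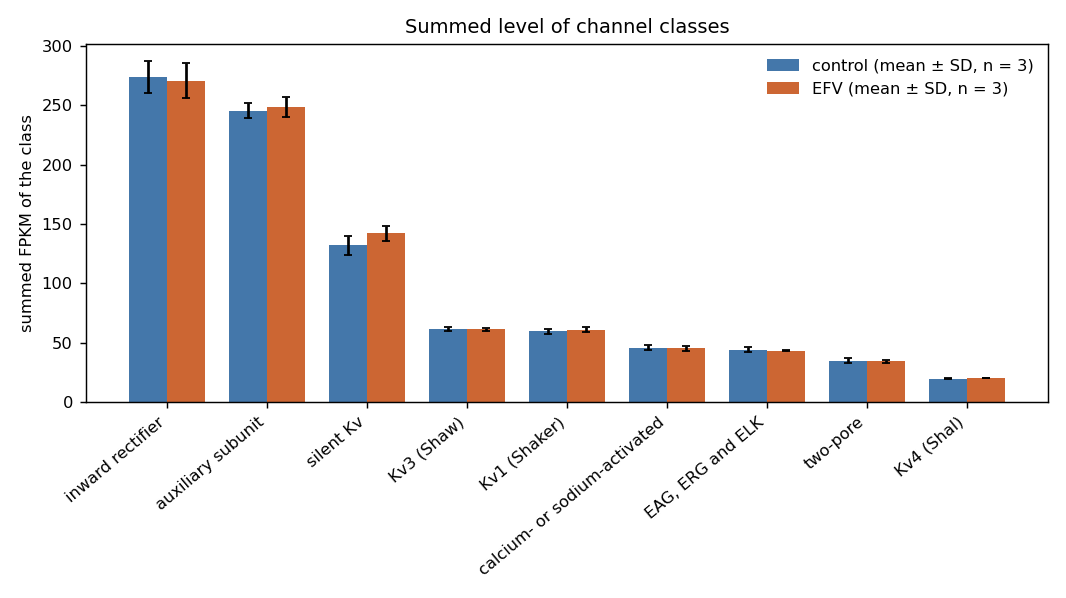
Summed FPKM of 9 channel classes in control and EFV (bars from 0, mean ± SD over n = 3 libraries). Inward rectifiers (274 in control and 271 in EFV) and auxiliary subunits (246 and 248) are the highest, and the SD bars of the 2 groups overlap in every class shown other than Kv4, where the means are 19.4 and 19.9.

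Kv1 (Shaker) subunits, most of which form delayed rectifiers, made up 5.17% of the channel FPKM. Kcna5 was the most abundant at 29.4 FPKM, with 30.3, 28.3 and 27.8 in control and 30.0, 31.4 and 28.8 in EFV, which overlapped (log2 fold change 0.045 ± 0.051). Kcna6, Kcna2, Kcna1, Kcna3 and Kcna4 had means from 10.9 down to 2.68 FPKM, and Kcna7 and Kcna10 were at 0.037 and 0.020 and were not tested. None of the 6 tested passed the threshold. Kcna6 shares 39.6% of its exon bases with an antisense gene, and as the strandedness of the counting is not stated, reads of the pair cannot be told apart. In all, 28 of the 93 channel genes share exon bases with another gene in GENCODE, 2 of them on the same strand. Among these are Kcnj3, with 31.1% shared with Gm26794, and Kcnmb4, with 20.9% and 10.7% shared with a pair of antisense genes, so their levels carry the same uncertainty.

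Of the Kv3 (Shaw) subunits, which serve fast repolarization, Kcnc1, Kcnc4 and Kcnc2 had means of 24.6, 8.30 and 7.76 FPKM. Kcnc1 had 25.0, 24.7 and 25.0 FPKM in control and 23.8, 24.5 and 24.6 in EFV. All EFV libraries lay below all control libraries, by as little as 0.03 FPKM, and the log2 fold change was -0.046 ± 0.040 (SE), so the gene did not pass the threshold. With counts scaled by library totals only, 1 channel gene in place of 2 had groups that did not overlap.

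The 3 Kv4 (Shal) genes, which give the transient outward current, were Kcnd3 at 13.2, Kcnd1 at 3.71 and Kcnd2 at 2.76 FPKM, and none passed the threshold. Their summed FPKM was 19.1 to 19.7 in control and 19.8 to 20.1 in EFV, without overlap, which is a description made after the values were seen. Of all the classes looked at, only this one had sums without overlap, and by little (19.7 against 19.77). Kcnd3, the most abundant of the 3, had a log2 fold change of -0.0071 ± 0.040 (SE). Of the Kv7 (KCNQ) genes, Kcnq3, Kcnq5 and Kcnq1 were at 0.640, 0.188 and 0.097 FPKM. The log2 fold change of Kcnq3 was -0.092 ± 0.26 (SE), and Kcnq1, just under the count minimum, was not tested. No value is given here for Kcnq1ot1, the imprinted antisense transcript of Kcnq1.

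In the EAG, ERG and ELK class, all 6 tested genes had a negative log2 fold change by edgeR, with a median of -0.078, but only Kcnh5 passed the threshold. By mean FPKM, Kcnh2 (27.3 in control and 27.5 in EFV) and Kcnh8 (0.370 and 0.373) were higher in EFV, and the other tested genes lower. The summed FPKM of the class overlapped, at 41.6 to 45.8 in control and 42.7 to 43.9 in EFV. Kcnh2, the ERG channel known from the heart, was the most abundant at 27.4 FPKM, with 28.7, 25.2 and 28.0 in control and 27.5, 26.2 and 28.9 in EFV. Its log2 fold change was -0.016 ± 0.049 (SE), so the groups lay over each other. Kcnh6 was at 10.3 FPKM with a value of -0.051 ± 0.064, and Kcnh1, Kcnh7 and Kcnh8 had means from 1.57 down to 0.372. Kcnh4 and Kcnh3 had means of 0.023 and 0.018 and were not tested.

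Of the 8 channels that calcium or sodium opens, 7 were tested and none passed the threshold. Kcnma1, the pore of the BK channel, had 24.3, 26.6 and 24.3 FPKM in control and 24.2, 24.9 and 23.7 in EFV (log2 fold change -0.051 ± 0.055). The small-conductance subunits were led by Kcnn2 at 9.65 FPKM, followed by Kcnn1 at 3.59 and Kcnn3 at 0.235, while Kcnn4 at 0.11 was not tested. Of the sodium-activated subunits, Kcnt1 was at 6.57 FPKM and Kcnt2, near the count minimum, at 0.17. Kcnu1, a channel known from sperm, was at 0.498.

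Among the 13 K2P genes, Kcnk1 (TWIK-1) and Kcnk3 (TASK-1) were the most abundant at 17.9 and 10.5 FPKM. Kcnk1 had 19.4, 16.9 and 18.7 FPKM in control and 17.0, 17.9 and 17.5 in EFV, and the log2 fold change was -0.087 ± 0.061 (SE). Besides Kcnk4, described above, Kcnk12, Kcnk9, Kcnk2, Kcnk10 and Kcnk13 were tested, with means from 1.67 down to 0.155. Kcnk9 spread widely, with 0.71 FPKM in EFV 1 and 1.75 in EFV 2, and its log2 fold change was -0.21 ± 0.33. The remaining 5 (Kcnk15, Kcnk6, Kcnk5, Kcnk7 and Kcnk18) were not tested. Just below the count minimum lay Kcnk15, with 0.33, 0.44 and 0.21 FPKM in control and 0.21, 0.17 and 0.72 in EFV.

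Some channel genes that are neighbours on a chromosome differed widely in level. On chromosome 16, Kcne2 was at 28.6 FPKM and Kcne1 at 0.0067, although their bodies lie within 500000 bases of each other. On chromosome 7, Kcnj14 at 231 FPKM and Kcnc1 at 24.6 lie in a row with Kcna7 at 0.037 and Kcnj11 at 2.79. The Kv1 cluster of chromosome 6 held Kcna5, Kcna1 and Kcna6 at 29.4, 4.46 and 10.9 FPKM.

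Genes that act with these channels were read from lists of 20 each. Of the partners, which anchor, traffic or regulate the channels, 18 were tested, with 5 positive and 13 negative log2 fold changes and a median of -0.028. Only Calm2, which encodes calmodulin, the calcium sensor of several of these channels, passed the threshold (1 of 18, beside 3.01% of all genes). Its FPKM was 315, 311 and 305 in control and 292, 293 and 296 in EFV, without overlap, as for 7.67% of all genes tested. The log2 fold change of Calm2 was -0.098 ± 0.041 (SE), just past the fold limit. The study lists Calm2 as lower on these same libraries, so its direction here is no independent evidence. Calm3, which encodes the same protein, had a mean of 231 FPKM in control and 225 in EFV, and a value of -0.055 ± 0.043. The call of Calm2 was lost with scaling by total counts, where no gene of either list passed. Of the sodium pump subunits, and of the cotransporters and exchangers that carry potassium across the membrane, 19 were tested. Their values were positive in 10 and negative in 9, and 0 passed, beside 3.01% of all genes tested. Among the most abundant of them, Atp1b2 and Slc24a1 had means of 727 and 260 FPKM in control and of 701 and 264 in EFV. Slc24a1, the exchanger of the rod outer segment, had a log2 fold change of 0.0074 ± 0.058.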

How the data were processed

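The 6 libraries (3 control, 3 EFV) held RNA of pooled retina plus RPE of 5XFAD mice. The authors used RSEM v1.2.12 to estimate expected counts from reads aligned to mm10 with Bowtie2 v2.2.5 (HISAT2 v2.0.4 is also in the submitters' processing notes), and these are not normalized. The deposited FPKM values are scaled by gene length and library total and rounded, the lowest listed being 0.01, and a gene absent from a library was taken as 0. The annotation release, the read filter and the strandedness are not given in the sources used here. The labels describe poly-A selection before random priming.

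Expected counts were rounded and scaled by TMM (factors 0.984 to 1.01). The quasi-likelihood test was that of edgeR 4.0.16 under R 4.3.3, run on genes that reached 10 counts in 3 or more libraries, with group as the single term, two-sided, with Benjamini-Hochberg adjustment over all 15537. The biological coefficient of variation was 0.0983. The limit of 3 counts given for a count of 0 covers counting error only, whereas the SE of edgeR includes the spread between pools. Coordinates are from RefSeq (GRCm38.p6), in which all 93 genes were found, and shared exons from GENCODE for GRCm38. The fits were checked on simulated counts.

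The channel genes and lists were chosen with earlier results of these data known. Values were given by rule for the 20 most abundant, the first of each class, up to 6 per direction with the smallest p, those past the threshold, those nearest the count minimum, and for Kcnh5 and Kcnv2. Some genes that this rule takes are not reported here. The others are named to account for their class. Alternatives were RLE, upper-quartile and total-count scaling, 3 other gene filters, DESeq2 1.42.0, a Poisson model, limma 3.58.1 on log2(FPKM + 0.1, 1 or 0.01), the replicate number as a block and each library left out.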

Additional observations from a re-analysis of the deposited data

How the results depend on the processing

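The median log2 fold change of the channel genes lay between -0.020 and 0.0059 when each library was left out in turn, and 0 channel genes passed an adjusted p of 0.05 in each of these fits. Of the 540 alternative values of the 30 named genes with a fit, none reversed a call and 507 stayed on their side of the threshold or within their error. A call was lost in 26 and gained in 3, and 4 values moved by more than their error. Only Kcnh5, Kcnk4 and Kcne2 had a call to lose, so all 26 losses fell on these 3 genes, with 18 alternatives each. With a Poisson model, which allows for no spread between pools, 7 channel genes, among them Kcne2, Kcnh5, Kcnj14, Kcnk4, Kcnma1 and Kcnv2, passed the adjusted p (9.72% of 72, beside 13.2% of all genes), and 5 passed the threshold of the paper (6.94%, beside 14.8%), 2 of them higher, with 2 partner or pump genes.

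The 3 genes past the threshold of the paper became 1 with DESeq2, with limma at each of the 3 pseudocounts and with the replicate block. The 2 lower ones became 1 with upper-quartile scaling, total counts only, every gene with a count, genes with an Entrez identifier only, DESeq2 and the replicate block, and 0 with limma. The 1 higher one became 0 with DESeq2 and the replicate block. The 1 partner gene became 0 with upper-quartile scaling, total counts only, Entrez genes only, limma and the replicate block. Scaling by total counts left 1 of the 2 genes without overlap. With a library left out, 0 to 4 channel genes passed (0.0% to 5.56%, beside 2.50% to 3.71% of all genes), 0 to 2 of them lower and 0 to 2 higher, with 0 to 1 partner or pump genes, and 4 to 13 had groups without overlap (5.56% to 18.1%, beside 14.8% to 19.5% of all genes), fewer libraries making this easier. Of the settings other than leaving out a library, Kcnh5 passed in 9 of 12, Kcnk4 in 10 and Kcne2 in 3, and each passed in 2 of the 6 fits with a library left out. Beyond the number of libraries, the cause was not tested.

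Deviations from the group means of libraries with the same number correlated at 0.125, 0.0832 and 0.0992 across genes, each library correlating best with its own number. Libraries with unlike numbers correlated at -0.101 to -0.0063. Not all of the first were over 0.1, the limit used here, so the main test did not take the numbers as pairs. A pairing was not excluded by this. With the replicate block, Kcnh5 alone passed (log2 fold change -0.27).

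With 3 pools a group, an exact permutation test of a single value cannot go below 0.1, and the p-values rest on the models. The SE was larger for genes of low level, and its parts from counting and from the pools were not separated.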
